A study of Mus musculus with 5 samples.

Results

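The genes described here were the cytochrome P450s of families 1 to 4, the flavin-containing monooxygenases (Fmo) and the UDP-glucuronosyltransferases (Ugt), chosen by symbol from the gene list of 5 mouse kidney libraries. There were 110 such genes of 27998, made up of 82 P450 genes, 7 Fmo genes and 21 Ugt genes. The libraries were labelled as 10x droplet RNA from kidneys of C57BL/6j mice in which pristane, a hydrocarbon oil, had induced lupus-like disease. All 5 mice carried that disease. Saline was given to 2 of them, and gut microbiota of MRL/MpJ mice was transplanted into the other 3 (FMT), so no mouse without disease entered a comparison. Age, sex and time after treatment are not given in the sources used here, and the title of the series speaks of B cells and of microbial inosine. The letters in the sample titles differ between saline and FMT mice, so a preparation batch that follows them and the treatment cannot be told apart. The labelled cell type was epithelial, whereas the matrices also held many cells with the immune gene Ptprc.

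P450s are haem enzymes, and those of families 1 to 4 sit in the endoplasmic reticulum and insert oxygen into fatty acids, steroids and foreign compounds. Flavin-containing monooxygenases oxidise nitrogen and sulphur atoms of foreign compounds and diet-derived amines. UDP-glucuronosyltransferases attach a sugar acid to such products so that they can be excreted, although the Ugt3 enzymes use other sugars. In the kidney these enzymes are known mostly from the proximal tubule, whose early S1 part carries the glucose transporter Slc5a2 and the lactate transporter Slc5a12, and whose S2 part is rich in the organic anion transporters Slc22a6 and Slc22a8.

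Proximal cells were taken by the share of their UMIs (unique molecular identifiers, 1 per captured transcript) in 12 proximal genes. They were called S1-side where Slc5a2 and Slc5a12 together exceeded Slc22a6 and Slc22a8, and S2-side in the reverse case. No gene described here was used in a gate. The 5 libraries held 15333445 to 45309178 UMIs, and 22591 of 26237 barcodes were kept. Proximal cells numbered 1409 to 3704 per mouse and 11932 in all, of which 3531 were S1-side and 6956 S2-side. The S2-side cells were deeper in every library, with a median of 5688.5 to 8308.5 UMIs against 3566 to 5059 in S1-side cells, and the part of depth in the results was not tested. No proximal cell had 2 or more UMIs of the S3 marker Slc7a13, so no S3 group was formed. The 5 S3 markers, Slc7a13 included, summed to 4.69 to 10.5 CPM (UMIs scaled to a total of 1000000) in proximal cells. That sum was 0 to 1.03 CPM in S1-side cells and 5.66 to 12.6 CPM in S2-side cells. Whether the S2 side holds S3 cells was not tested. Xist, the transcript of the inactive X chromosome, was at 1112 to 1604 CPM in proximal cells of all 5 libraries. Between 2 and 8 cell barcodes were shared by any pair of libraries.

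The promoters of 5 members are shown, which stand for the cell groups described below. They are Ugt2b38 for the S1 side, the neighbours Cyp2a4 and Cyp2a5 for the S2 side, Fmo5 for cells with urothelial markers and Cyp1a1 for cells with Atp6v1g3. Each runs 5′ to 3′ on the strand of its gene, from 250 bases before to 50 after the RefSeq start on GRCm38.p6. Capitals mark every match, on either strand, to 4 motifs. The nuclear receptor motif was searched as AGGTCA. The motif of the factor HNF1 was searched as GTTAAT. The core of the xenobiotic response element, where the receptor Ahr binds, was searched as GCGTG. The TATA box was searched as TATAAA. No motif overlapped another one in these windows.
Ugt2b38, chr5:87424154-87424453, minus strand: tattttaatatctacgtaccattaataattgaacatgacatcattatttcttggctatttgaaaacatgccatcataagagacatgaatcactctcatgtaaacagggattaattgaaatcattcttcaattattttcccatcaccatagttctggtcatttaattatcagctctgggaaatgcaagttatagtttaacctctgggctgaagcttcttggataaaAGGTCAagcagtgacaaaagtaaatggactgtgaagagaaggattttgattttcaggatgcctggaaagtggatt
Cyp2a4, chr7:26306942-26307241, plus strand: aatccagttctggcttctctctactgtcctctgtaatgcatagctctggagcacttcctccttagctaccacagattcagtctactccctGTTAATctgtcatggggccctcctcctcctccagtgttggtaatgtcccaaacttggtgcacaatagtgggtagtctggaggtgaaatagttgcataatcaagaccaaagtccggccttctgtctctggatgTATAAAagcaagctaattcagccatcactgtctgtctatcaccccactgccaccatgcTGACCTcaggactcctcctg
Cyp2a5, chr7:26835089-26835388, plus strand: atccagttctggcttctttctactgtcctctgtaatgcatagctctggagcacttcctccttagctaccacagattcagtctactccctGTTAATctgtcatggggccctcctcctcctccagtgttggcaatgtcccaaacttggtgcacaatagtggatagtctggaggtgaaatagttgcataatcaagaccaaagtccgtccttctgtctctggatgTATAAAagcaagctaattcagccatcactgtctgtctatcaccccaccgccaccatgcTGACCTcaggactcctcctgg
Fmo5, chr3:97628769-97629068, plus strand: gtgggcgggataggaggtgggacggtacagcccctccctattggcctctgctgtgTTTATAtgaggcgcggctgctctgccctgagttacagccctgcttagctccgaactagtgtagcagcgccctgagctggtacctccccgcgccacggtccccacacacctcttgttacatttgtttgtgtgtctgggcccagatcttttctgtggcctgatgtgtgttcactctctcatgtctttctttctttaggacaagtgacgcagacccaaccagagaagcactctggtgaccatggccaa
Cyp1a1, chr9:57697363-57697662, plus strand: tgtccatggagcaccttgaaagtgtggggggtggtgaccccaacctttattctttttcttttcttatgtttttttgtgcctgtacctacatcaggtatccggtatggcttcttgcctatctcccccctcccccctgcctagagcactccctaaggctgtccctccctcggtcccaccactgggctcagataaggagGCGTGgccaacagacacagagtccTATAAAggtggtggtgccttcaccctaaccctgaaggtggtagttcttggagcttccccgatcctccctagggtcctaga
The Cyp2a4 and Cyp2a5 windows differed by 7 edits in 300 bases (97.7% identity) and held the same 3 motifs. The Cyp1a1 window held 1 GCGTG and 1 TATAAA, and the Ugt2b38 window held 1 AGGTCA. Across the 32851 promoters of the RefSeq table, AGGTCA was present in 16.3%, GTTAAT in 7.1%, GCGTG in 32.4% and TATAAA in 13.6%. Among the 98 windows of the 90 members found there, the shares were 30.6%, 17.3%, 16.3% and 34.7%. A match describes letters in a window and is not evidence of binding.

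Of the 110 genes, 36 had 0 UMIs in all barcodes, 16 had 1 to 9 and 31 had at least 1000. Proximal cells held at least 1 UMI of 68 of them, and 28 had a mean of at least 10 CPM, 21 of at least 20 and 12 of at least 100. Together the 110 genes gave 0.5498% and 0.60% of proximal UMIs in saline mice 1 and 2 against 0.7018%, 0.4852% and 0.4686% in FMT mice 1 to 3. FMT mouse 1 was the highest and the other FMT mice the lowest, so the groups overlapped. Whole families were near 0 in these proximal cells. The 3 Cyp1 genes, known for oxidising planar aromatic compounds, summed to at most 0.2232 CPM. The 9 Cyp3a genes, which dominate drug oxidation in liver and gut, summed to 0.199 to 0.4196 CPM.

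The most abundant members were Cyp4a14 and Cyp4a10, fatty acid hydroxylases of the Cyp4a cluster, and Fmo1. Cyp4a14, a hydroxylase of the terminal carbon of fatty acids and a known target of the receptor PPARα, was at 1045 and 1194 CPM in saline mice 1 and 2, and at 1216, 776.9 and 651.5 in FMT mice 1 to 3. Cyp4a10, with the same kind of reaction, was at 721.1 and 888.9 CPM in saline mice and at 1131, 744.4 and 560.8 in FMT mice. Cyp4a31 was at 283.1 and 352.9 CPM against 412.0, 273.5 and 258.5. For all 3, FMT mouse 1 was the highest library and FMT mouse 3 the lowest. Fmo1, a flavin monooxygenase long known from kidney, was at 710.0 and 760.0 CPM in saline mice and at 914.9, 886.1 and 977.7 in FMT mice, without overlap. How many of all genes separated the groups like this was not counted, here or below. Fmo2 hardly varied, with 314.5 and 346.7 CPM in saline mice against 344.6, 316.0 and 336.5 in FMT mice.

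Cyp2a5, the mouse coumarin hydroxylase, was at 395.9 and 352.7 CPM in saline mice and at 597.7, 112.7 and 344.2 in FMT mice, with FMT mouse 2 far below the rest. Cyp4b1, which acts on medium-chain fatty acids and foreign amines, was at 361.9 and 351.4 against 488.9, 292.4 and 281.0 CPM. Cyp2j5, a renal arachidonic acid epoxygenase, was at 325.9 and 312.0 against 352.2, 298.2 and 255.6 CPM. These groups overlapped. Cyp2d26 was at 317.2 and 304.1 CPM in saline mice and at 300.6, 242.3 and 218.8 in FMT mice, all 3 below both saline mice. Cyp2e1, the ethanol-oxidising P450, was at 215.7 and 221.9 against 257.4, 118.2 and 130.6 CPM. Cyp2d12 was at 141.4 and 189.0 against 182.3, 168.2 and 109.2 CPM. Ugt3a2, the most abundant transferase, was at 143.8 and 137.7 against 170.3, 127.3 and 103.7 CPM. Levels are UMIs of the 3′ end and were not set per length, so they rank transcripts as captured.

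**Figure D1:**
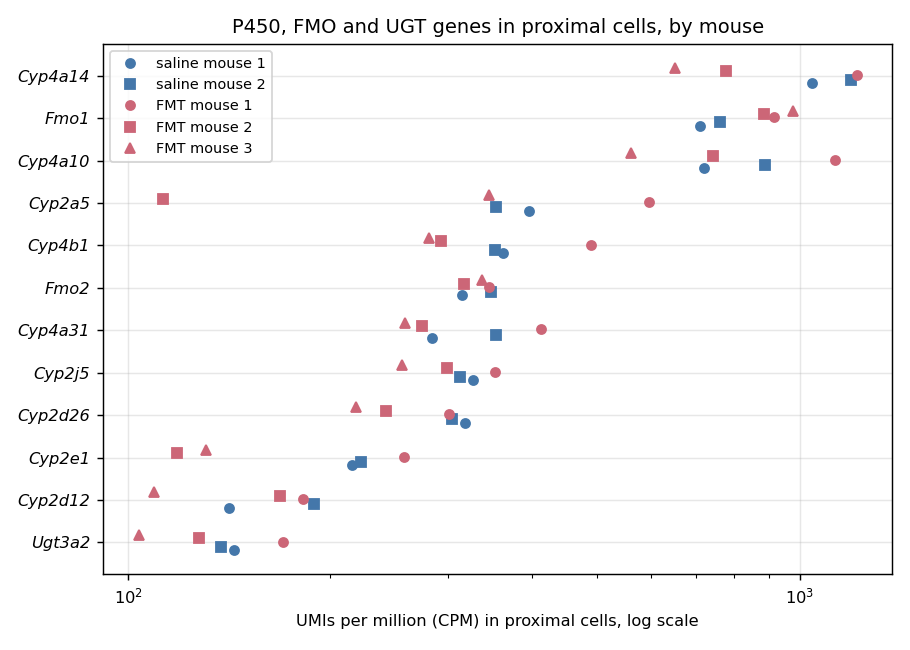
CPM in proximal cells (log axis) of the 12 most abundant members, with 1 point per mouse, saline in blue and FMT in red, circles for mouse 1, squares for mouse 2 and triangles for mouse 3. The Fmo1 and Cyp2d26 points do not overlap between groups, which was not set against all genes, and the Cyp2a5 point of FMT mouse 2 lies at 112.7 CPM.

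The main difference among these genes was between the S1 and S2 sides of the proximal tubule. Of 42 members that passed the filter on low counts, 33 differed between the sides with edgeR's quasi-likelihood test and the mouse as a block (adjusted p under 0.05 over all genes). Of the 11502 genes tested, 48.7% were called, 23.9% higher and 24.8% lower on the S1 side. Among the members 7 were higher on the S1 side and 26 higher on the S2 side. All 7 of the first and 20 of the second had plain CPM values in the same direction in 5 of 5 mice. The median log2 ratio of S1 over S2 was -0.49 over the members and 0.024 over all genes tested. With total UMIs in place of TMM scaling the median over all genes was 0.207, and 11 members were called higher and 21 lower on the S1 side. In that fit Fmo2, Cyp2j6, Cyp2f2 and Cyp4f16 joined the S1-side calls, and Cyp4b1, Ugt2b34, Ugt2b37, Cyp2c44 and Fmo5 were no longer called.

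Among members with at least 5 CPM in proximal cells, those higher on the S2 side were led by a pair of Cyp2a genes. Below that level, Ugt1a10 (-4.25 ± 0.646) and Ugt2b5 (-3.75 ± 0.412) had log2 ratios of S1 over S2 beyond that of Cyp2a5. Cyp2a5 was at 65.7 and 50.02 CPM in S1-side cells of saline mice and at 89.0, 16.6 and 44.2 in those of FMT mice. In S2-side cells it was at 547.8 and 509.6 CPM in saline mice and at 718.0, 169.7 and 482.3 in FMT mice. Every mouse was higher on the S2 side, and FMT mouse 2 was the lowest on both sides. The log2 ratio of S1 over S2 was -3.40 ± 0.083 (SE, adjusted p = 6.69e-23, edgeR). Cyp2a4, its neighbour on chromosome 7 and a steroid hydroxylase, was at 0.293 to 2.19 CPM on the S1 side and 19.7 to 41.0 on the S2 side, a log2 ratio of -4.62 ± 0.190. The last 300 bases of their transcripts were 97.0% identical, so the split of UMIs between Cyp2a4 and Cyp2a5 is uncertain.

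Cyp4a14 had the largest gap in mean CPM among the members. It was at 347.2 and 283.8 CPM in S1-side cells of saline mice and at 404.2, 341.8 and 259.3 in those of FMT mice, against 1377 and 1664 and against 1411, 1045 and 848.7 on the S2 side. The sides did not overlap. The log2 ratio was -2.11 ± 0.087, and it was -1.97 ± 0.073 for Cyp4a10 and -1.26 ± 0.071 for Cyp4a31. The 8 Cyp4a genes lie within 379.5 kb of chromosome 4, and 4 of the 5 that passed the filter were higher on the S2 side. Cyp4a12b was 1 of these 4 (-1.09 ± 0.124). Cyp4a12a, an arachidonic acid hydroxylase, was not called (-0.22 ± 0.146). The last 300 bases were 97.0% identical between Cyp4a10 and Cyp4a31 and 98.7% between Cyp4a12a and Cyp4a12b, so these splits are uncertain too. Cyp4a14 and Cyp4a10 were only 54.7% identical there.

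Cyp2j11 was at 12.8 to 24.7 CPM on the S1 side and at 109.2, 102.3, 130.2, 115.2 and 100 on the S2 side of saline mice 1 and 2 and FMT mice 1 to 3, a log2 ratio of -2.81 ± 0.097. Cyp2e1 was at 46.9 to 94.5 CPM against 161.9 to 300.7, a ratio of -2.00 ± 0.083. Both were higher on the S2 side in every mouse. Of the transferases, Ugt3a1, which in humans attaches N-acetylglucosamine, was at 6.17 to 9.35 CPM on the S1 side and 21.9 to 45.6 on the S2 side (-2.52 ± 0.128), and Ugt3a2 followed with -0.89 ± 0.078. The 4 Ugt1a genes that passed the filter were all higher on the S2 side. Ugt1a genes share their last exons, with 100% identity over the final 300 bases in each pair compared, so their single values cannot be separated. The sum of all 9 Ugt1a genes was 26.9 to 34.0 CPM on the S1 side and 50.9 to 84.1 on the S2 side.

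Fewer members were higher on the S1 side. Ugt2b38 was at 89.4 and 112.3 CPM in S1-side cells of saline mice and at 120.4, 97.4 and 91.9 in those of FMT mice. On the S2 side it was at 5.55 and 10.1 CPM in saline mice and at 9.32, 11.2 and 9.87 in FMT mice. The sides were far apart in every mouse, with a log2 ratio of 3.31 ± 0.101 (adjusted p = 6.55e-21, edgeR). Ugt2b38 thus went against Ugt2b5 (-3.75 ± 0.412), Ugt2b37 (-0.99 ± 0.376) and Ugt2b34 (-0.30 ± 0.080), which lie in the same cluster on chromosome 5. Over the last 300 bases Ugt2b38 was 87.7% identical to Ugt2b5 and to Ugt2b37.

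Cyp2d12 was at 348.7 and 323.9 CPM on the S1 side of saline mice and at 485.0, 332.0 and 276.2 in FMT mice, and at 69.9 and 140.6 and at 124.3, 101.5 and 71.5 on the S2 side. The log2 ratio was 1.65 ± 0.091, with no overlap between the sides. Cyp2d26 was higher on the S1 side by 0.35 ± 0.069, from a mean of 258.3 to 372.8 CPM, while Cyp2d9 and Cyp2d22 of the same chromosome 15 cluster were lower there (-1.68 ± 0.222 and -0.56 ± 0.094). Cyp2d9, a testosterone hydroxylase in mouse liver, and Cyp2d12 were 93.7% identical over the last 300 bases. The other S1-side calls were on low levels. Cyp2c68 (3.67 ± 0.411) and Cyp2c69 (2.09 ± 0.337) were at means of 4.18 and 3.78 CPM on the S1 side, Cyp2u1 had a ratio of 0.65 ± 0.228 and Cyp2j9 of 0.38 ± 0.117. The call of Cyp2u1 was lost without saline mouse 1 (adjusted p = 0.0687, edgeR) and without FMT mouse 1 (0.056), and that of Cyp2j9 without FMT mouse 1 (0.172). Among the genes called higher on the S2 side, Ugt2b37 kept its call when saline mouse 2 was left out but not when another mouse was. Fmo5 lost its call without saline mouse 1 or 2 or FMT mouse 1 or 2, and Cyp4b1 without saline mouse 1 or 2 or FMT mouse 2.

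The flavin monooxygenases differed little. Fmo1 was at 678.6 to 875.7 CPM on the S1 side and 721.7 to 1024 on the S2 side, a log2 ratio of -0.33 ± 0.064, and its S2-side value was higher in 5 of 5 mice. Fmo4 had a ratio of -0.56 ± 0.085. Fmo2 was not called, with 0.04 ± 0.073.

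**Figure D2:**
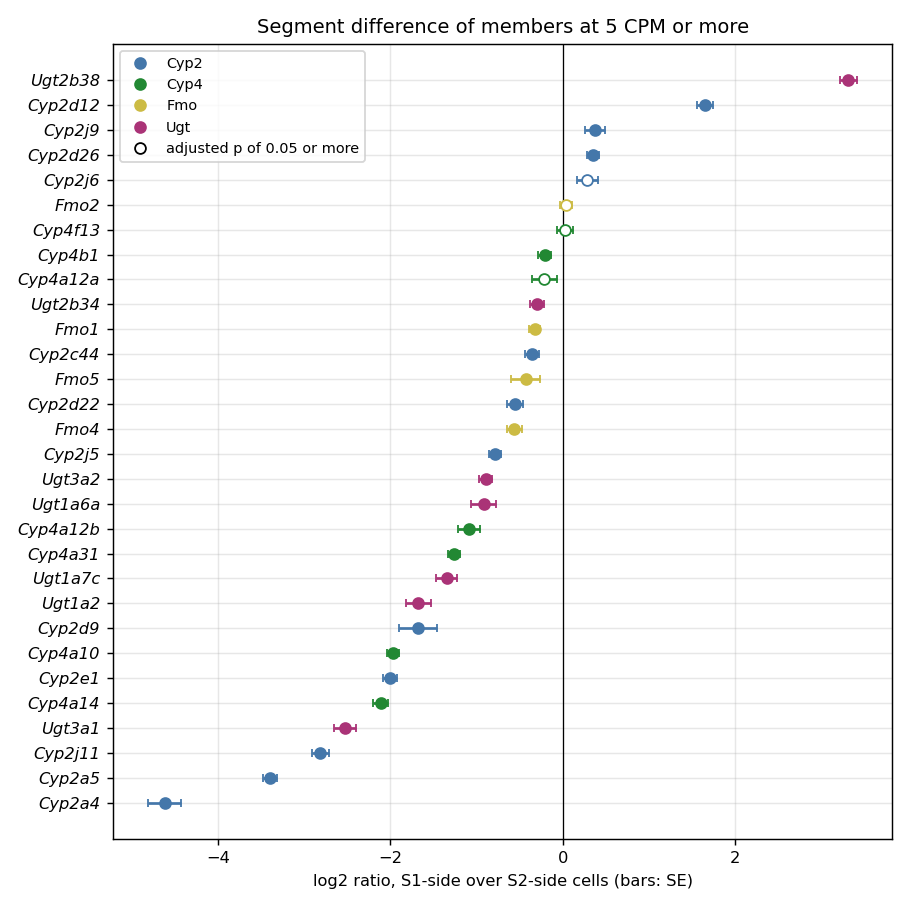
Log2 ratio of S1-side over S2-side cells with its SE for the members that passed the filter and had at least 5 CPM in proximal cells, coloured by family, with open points where the adjusted p was 0.05 or more. Ugt2b38 and Cyp2d12 lie farthest to the right and Cyp2a4 and Cyp2a5 farthest to the left.

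Partner genes were read in the same fit. Of 11 genes for electron donors and sugar supply, all 11 passed, 1 was higher and 7 were lower on the S1 side. Por, the reductase that feeds electrons to microsomal P450s, had a log2 ratio of -0.56 ± 0.077, and Cyb5a, the cytochrome b5 that assists some of them, -1.08 ± 0.065. Cyb5b was the higher one (0.27 ± 0.073), and Pgm2, Ugdh, Ugp2, Cyb5r3 and Slc35d1 were lower, from -0.60 to -0.26. Of 16 other conjugating and hydrolysing enzymes 14 passed, with 2 higher and 9 lower. Ephx1, the microsomal epoxide hydrolase, had -2.81 ± 0.169 and Nat8, which acetylates cysteine conjugates, -2.60 ± 0.098, while Ces1f, Tpmt, Ces2c, Ces1d, Ephx2, Sult1d1 and Nat2 lay between -1.67 and -0.75. Dpyd, which breaks down pyrimidines, was higher on the S1 side by 0.39 ± 0.084.

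Of 16 nuclear and xenobiotic receptors 14 passed, with 6 higher and 4 lower on the S1 side. Nr1i3, the constitutive androstane receptor, had a log2 ratio of -1.58 ± 0.216, at 3.72 to 8.45 CPM in proximal cells. Nfe2l2 (-0.93 ± 0.077) and Stat5b (-0.44 ± 0.130) were among the others that were lower. Bcl6 (0.94 ± 0.177), Tiparp (0.70 ± 0.093), Nr3c1 (0.48 ± 0.079), Arnt (0.40 ± 0.116), Rxra (0.32 ± 0.084) and Ppara (0.27 ± 0.075) were higher. Of 11 P450s of other families 5 passed. The vitamin D enzymes Cyp27b1 (2.71 ± 0.113) and Cyp24a1 (2.44 ± 0.176) and the sterol hydroxylase Cyp27a1 (0.31 ± 0.093) were higher on the S1 side, and Cyp20a1 (-0.59 ± 0.237) and Cyp51 (-0.48 ± 0.181) were lower.

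Between FMT and saline mice no member was called in proximal cells, which were compared to ask whether the transplant went with a change in these enzymes. Of 12005 genes tested, 0.075% were called, all 9 of them lower in FMT mice, and 1199 had an unadjusted p under 0.05. Of the 44 members that passed the filter, 0 were called by edgeR or by DESeq2, and 3 had an unadjusted p under 0.05. Their log2 ratios of FMT over saline were positive in 17 and negative in 27, with a median of -0.065 against -0.0075 over all genes. With 2 against 3 mice the smallest exact p for a single value, in a given direction, is 0.1. The adjusted p-values come from edgeR, which tests both directions.

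The smallest p-values were on genes of low level, apart from Fmo1. Cyp2j9 was at 16.5 and 23.5 CPM in saline mice and at 14.95, 10.98 and 13.01 in FMT mice, a log2 ratio of -0.59 ± 0.193 (adjusted p = 0.366, edgeR). Ugt2b37 was at 2.46 and 2.49 against 1.66, 1.26 and 0.839 CPM (-0.89 ± 0.352, adjusted p = 0.439, edgeR), and Cyp4a12b at 18.4 and 26.5 against 19.8, 13.8 and 15.2 CPM (-0.42 ± 0.200, adjusted p = 0.518, edgeR). In the other direction Ugt2b5 was at 2.08 and 1.99 against 3.52, 3.06 and 3.46 CPM (0.72 ± 0.274, adjusted p = 0.415, edgeR). Fmo1, with the CPM values above, had 0.35 ± 0.180 (adjusted p = 0.547, edgeR), and Cyp2r1, a vitamin D 25-hydroxylase, 0.73 ± 0.493 at 0.498 to 1.32 CPM (adjusted p = 0.625, edgeR). Groups did not overlap for Cyp2j9, Ugt2b37, Ugt2b5 and Fmo1. These genes were picked by their p-values, and the share of all genes without overlap was not counted, so the separation is not read as a result. Among the partner genes only Cyp24a1 was called (-1.84 ± 0.233, adjusted p = 0.0265, edgeR). It was at 232.7 and 166.8 CPM in saline mice against 68.2, 59.8 and 38.6 in FMT mice. The call was not recomputed with single mice left out. Cyp24a1 was not called in S1-side cells alone (-1.855 ± 0.357, adjusted p = 0.0581, edgeR) or in S2-side cells alone (-0.97 ± 0.216, adjusted p = 0.177, edgeR).

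The sides taken apart gave the same count. In S1-side cells 0 of 34 members that passed were called, where 0.172% of 10489 genes were, and 554 genes had an unadjusted p under 0.05. In S2-side cells 0 of 41 were called, where 0.0878% of 11395 genes were, and 1427 had an unadjusted p under 0.05. DESeq2 called 0 members on either side, and without the filter on low counts Cyp2j9 was called lower in S2-side cells of FMT mice. Fmo1 was higher in all 3 FMT mice than in both saline mice on each side, and Fmo2 was so on the S1 side, with 330.2 and 327.6 CPM in saline mice against 409.4, 384.7 and 397.4 in FMT mice. Neither was called, and such separation was not counted over all genes.

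The difference between the FMT effects on the S1 and S2 sides was tested with an interaction term. Of 42 members that passed, 0 were called, where 0.0435% of 11502 genes were, and DESeq2 called 0. An unadjusted p under 0.05 was found for 8 of these members and for 1070 of all genes tested (9.3%). The smallest p was on Cyp4a14, whose S2-side values of 1377 and 1664 CPM in saline mice stood against 1411, 1045 and 848.7 in FMT mice. The groups overlapped on both sides. The log2 ratio of FMT over saline for Cyp4a14 was 0.04 on the S1 side and -0.44 on the S2 side, and the first minus the second was 0.50 ± 0.135 in the interaction fit (adjusted p = 0.169, edgeR). Without FMT mouse 1, Cyp4a14 was the 1 member called in this comparison.

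**Figure D3:**
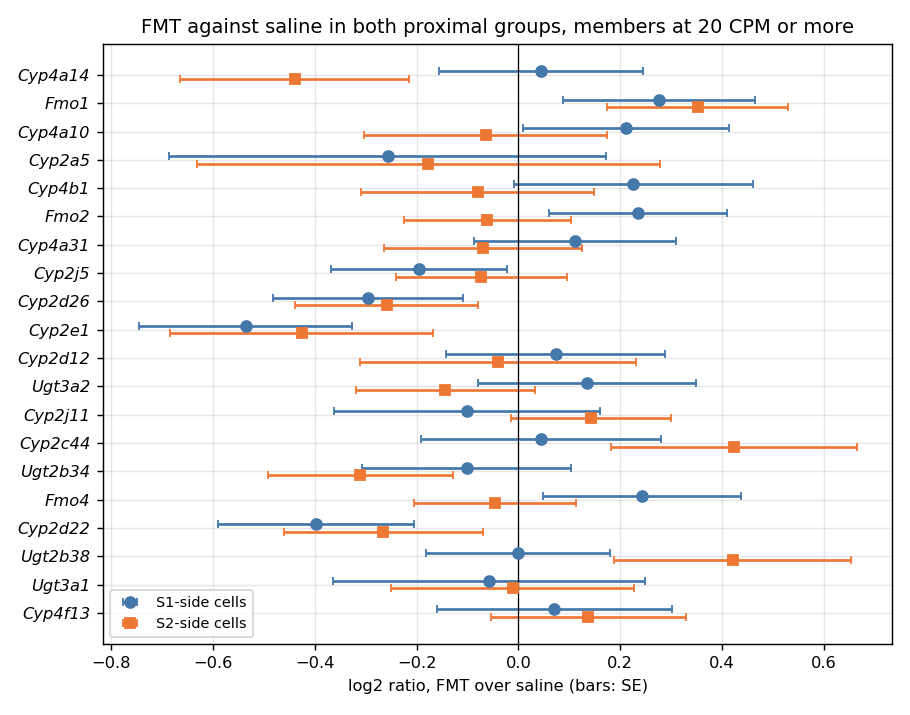
Log2 ratio of FMT over saline with its SE in S1-side cells (blue circles) and S2-side cells (orange squares), for members with at least 20 CPM in proximal cells that passed the filter on both sides. None was called, and Fmo1 lies to the right of 0 and Cyp2d26, Cyp2e1 and Cyp2d22 to the left on both sides. Other members, such as Cyp2c44 (right) and Cyp2j5 (left), also keep their direction in both cell groups.

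In the other cells most of these transcripts were at a few percent of the proximal level. Cells with Slc12a3 (a salt transporter of the distal convoluted tubule), Atp6v1g3 (a proton pump subunit of intercalated cells) or Ptprc (a surface protein of immune cells) were taken where the proximal share was low, which gave 109 to 232, 132 to 258 and 386 to 1348 cells per mouse. The 12 proximal genes of the gate were at 0.81 to 2.76%, 1.83 to 3.12% and 1.79 to 2.58% of their proximal CPM there. Those genes set the gate, so their level is a scale and not a result. The median over the 21 members with at least 20 CPM in proximal cells was 0.654 to 2.29%, 2.099 to 3.33% and 1.43 to 2.27%, close to the same scale. All 110 genes together gave 0.0316 to 0.0519%, 0.0377 to 0.0958% and 0.0235 to 0.0386% of UMIs in these cells.

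Several members stood above the proximal level. In Slc12a3 cells Cyp2j6, a member of the arachidonic acid epoxygenase family, was at 72.4 and 86.2 CPM in saline mice and at 71.7, 80.5 and 61.8 in FMT mice, against 11.3 to 21.8 in proximal cells. Cyp2u1, a fatty acid hydroxylase, was at 27.6 and 41.0 against 57.7, 45.6 and 48.5 CPM, and at 2.39 to 4.26 in proximal cells. Cyp2j11 was at 43.4 and 72.7 against 80.1, 69.9 and 58.5 CPM, close to its level of 73.1 to 110.1 in proximal cells as a whole. Cyp4f13 (25.8 to 42.8 CPM), Cyp4f16 (12.2 to 20.2) and Cyp2s1 (7.89 to 18.6) were also above their proximal means. At 3 or more Slc12a3 UMIs the means were 79.3 CPM for Cyp2j6, 46.5 for Cyp2u1, 69.0 for Cyp2j11, 34.2 for Cyp4f13, 15.9 for Cyp4f16 and 14.0 for Cyp2s1.

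Fmo5, a flavin monooxygenase that can insert oxygen into ketones, was the 1 member called between FMT and saline mice in Slc12a3 cells, of 10 that passed, where 0.464% of 7974 genes were called. It was at 5.26 and 3.67 CPM in saline mice and at 26.1, 39.5 and 18.4 in FMT mice, a log2 ratio of 2.71 ± 0.487 (adjusted p = 0.0149, edgeR). These values rest on 4 and 6 UMIs in saline mice against 28, 26 and 11 in FMT mice. The urothelial markers Upk1b and Upk3a summed to 5.26 and 1.22 CPM in the same saline cells and to 29.8, 79.0 and 78.6 in the FMT cells. The thick limb markers Umod and Slc12a1 summed to 3691 and 4783 CPM in these cells of saline mice and to 2442, 2202 and 1830 in those of FMT mice, without overlap, and to 1862 to 5004 at 3 or more Slc12a3 UMIs. The part of either marker list in the Fmo5 difference was not tested. At 3 or more Slc12a3 UMIs, Fmo5 was at 5.76 and 3.93 CPM against 7.02, 4.88 and 19.8, and the groups overlapped. There, and without the 5% of cells with most UMIs, Fmo5 did not pass the filter on low counts and was not tested. Its call was lost without saline mouse 1 (adjusted p = 0.0692, edgeR), without saline mouse 2 (0.264) and without FMT mouse 2 (0.0578).

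In cells with Atp6v1g3, Cyp1a1, the P450 best known as a target of the Ahr receptor, was at 18.8 and 34.8 CPM in saline mice and at 44.7, 24.5 and 49.5 in FMT mice. In proximal cells the 3 Cyp1 genes together stayed at or under 0.2232 CPM. This gate also held other cells, with urothelial markers at 316.3 to 1015 CPM, B cell markers at 572.7 to 1134 and neutrophil markers at 68.3 to 15760. At 3 or more Atp6v1g3 UMIs, in 87 to 201 cells per mouse, the urothelial markers were at 0 to 8.14 CPM and the intercalated markers at 14480 to 18250, and Cyp1a1 was at 48.8 and 60.3 CPM in saline mice against 79.4, 40.4 and 79.8 in FMT mice. Cyp2s1, an extrahepatic P450, was there at 28.5 and 72.8 against 125.4, 80.8 and 6.65 CPM, lowest in FMT mouse 3. The last of these values rests on few UMIs. Cyp2u1 was at 16.3 to 40.2 CPM, Cyp2j6 at 0 to 37.7 and Cyp4v3, a fatty acid hydroxylase, at 0 to 16.3, each with overlapping groups except Cyp4v3, which was at 16.3 and 15.1 CPM against 12.5, 13.5 and 0. The Cyp4v3 values rest on few UMIs, and the gene did not pass the filter on low counts in the wider gate. Its difference between groups was not tested. Ahr itself was at 10.9 to 47.0 CPM in the wider gate and 0.839 to 1.85 in proximal cells. Of the 10 members that passed in the wider gate 0 were called between FMT and saline mice, as were 0 of all 6354 genes (0% called, 245 with an unadjusted p under 0.05, and no member by DESeq2).

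Fmo5, Cyp4f15 and Cyp4f18 were lower at the stricter limit. Fmo5 was at 97.8 to 407.2 CPM in the wider gate and at 20.9 to 31.4 at 3 or more Atp6v1g3 UMIs. Cyp4f15 was at 17.8 to 63.6 CPM in the wider gate and at 0 in all 5 mice at 3 or more UMIs. Cyp4f18 was at 24.5 to 67.4 CPM in the wider gate, and at 24.4 in saline mouse 1 and 0 in the other mice at 3 or more UMIs. These differences between gates were not tested.

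In Ptprc cells the leading member was Cyp4f18, which in mouse neutrophils inactivates the chemoattractant leukotriene B4. It was at 166.1 and 120.1 CPM in saline mice and at 93.0, 89.8 and 137.9 in FMT mice, against 1.68 to 3.78 in proximal cells. Ptprc cells were divided by marker genes, where a cell passed the limit of 1 kind and of no other. The limits were 1 UMI of Csf3r alone for neutrophils and 1 of Csf1r and C1qa together for monocytes and macrophages. For B and T cells they were 2 UMIs of the markers. Cyp4f18 was at 397.2 to 597.0 CPM in the neutrophil division, of 25 to 65 cells per mouse. It was at 184.7 to 404.8 with monocyte and macrophage markers, 182.4 to 216.1 with B cell markers and 0 to 4.68 with T cell markers. Cyp4f16 was at 45.0 to 151.7 CPM with monocyte and macrophage markers, 3.95 to 18.1 with T cell markers, 1.18 to 6.67 with B cell markers and 0 to 5.84 with neutrophil markers. Cyp4v3 was at 9.10 to 11.8 CPM and Fmo5 at 7.81 to 25.1 in all Ptprc cells. Of 20 members that passed the filter 0 were called between FMT and saline mice, where 0.00913% of 10949 genes were, 540 genes had an unadjusted p under 0.05, and DESeq2 called no member. Fewer immune cells of 1 kind and less RNA per cell cannot be told apart in these sums.

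**Figure D4:**
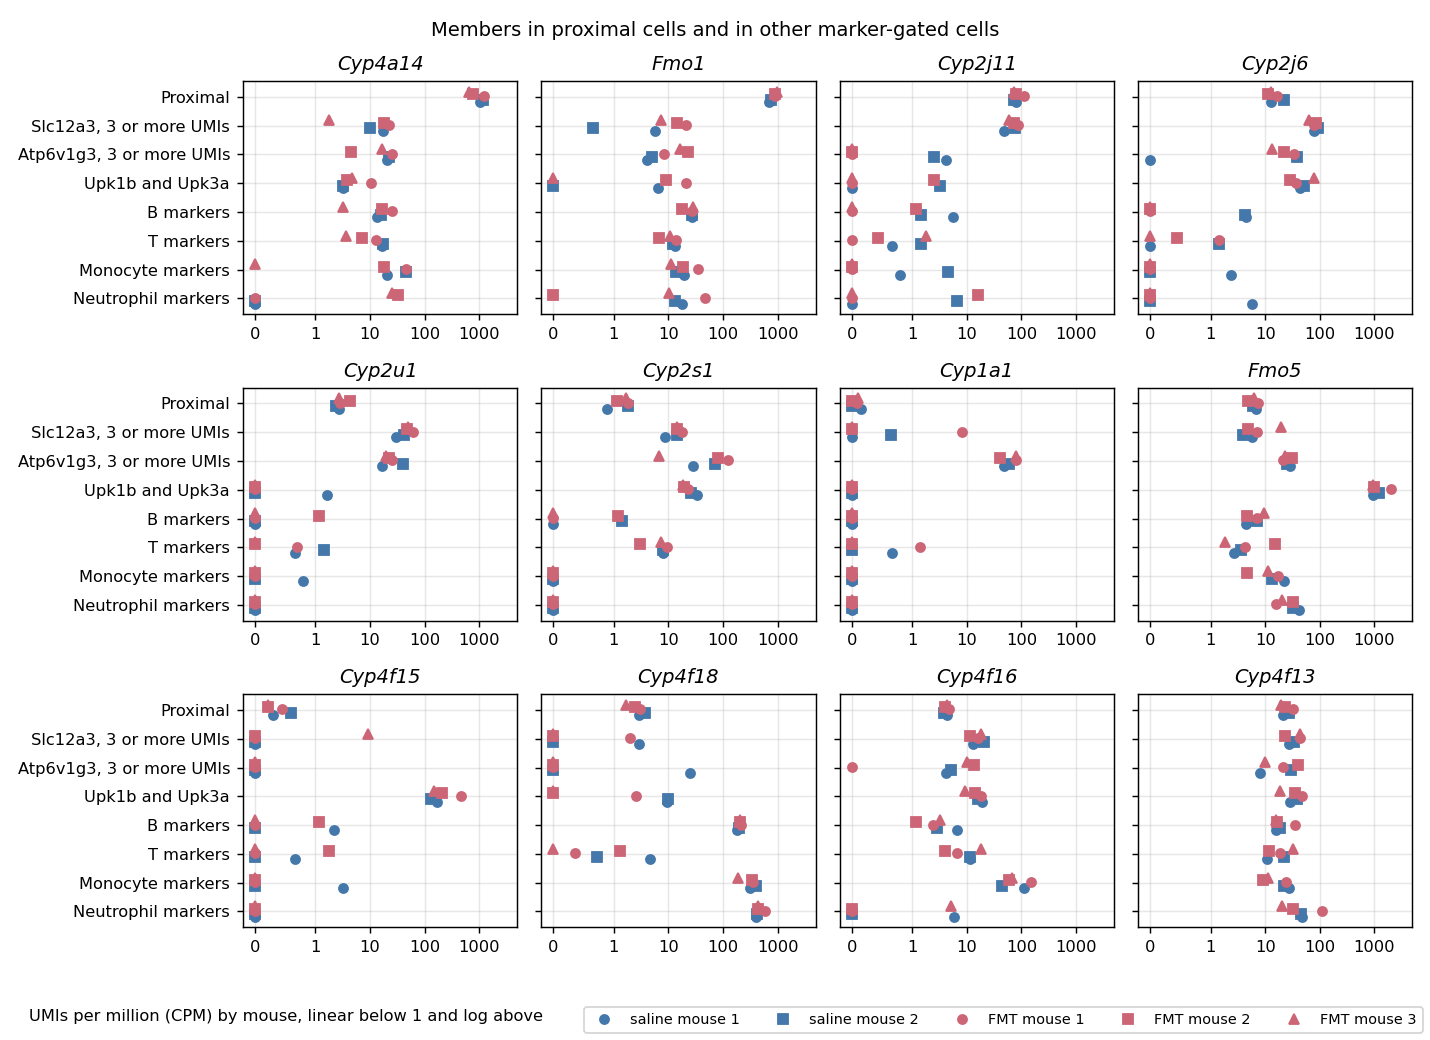
CPM of 12 members (linear below 1, log above) in proximal cells, in cells with 3 or more UMIs of Slc12a3 or Atp6v1g3, in cells with Upk1b and Upk3a, and in Ptprc cells divided by markers, with 1 point per mouse, saline in blue and FMT in red. By mean over mice, Cyp4a14 and Fmo1 are highest in proximal cells, Cyp2j6 and Cyp2u1 in Slc12a3 cells, Cyp1a1 in Atp6v1g3 cells, Fmo5 and Cyp4f15 in Upk1b and Upk3a cells, and Cyp4f18 in neutrophil marker cells.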

How the data were processed

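Per the labels, the libraries were 10x droplet RNA, although the protocol text names a bulk extraction and library kit. The deposited matrices hold raw UMI counts per gene and barcode, and the authors' feature and barcode lists name their rows and columns. Cell Ranger 2.1.1 and mm10 are named in the submitters' processing notes, whereas version 4.0.0 is named per the file headers. The members, lists and thresholds were chosen with earlier results of these data known.

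A cell was kept if it had 200 genes or more and if mitochondrial UMIs made up less than 50%. Doublets were not called. Proximal cells had at least 0.5 of the library's reference share of 12 proximal genes and under 2 UMIs of Ptprc, Slc12a3 and Atp6v1g3. The other cells had under 0.25 of it, at least 1 UMI of their gene and 0 of the other two. The limit of 3 UMIs, the divisions of Ptprc cells and the Upk1b and Upk3a cells (at least 2 UMIs together) were added after values had been seen. UMIs were summed per mouse and gate and tested with edgeR 4.0.16 (quasi-likelihood, TMM, low count filter, Benjamini-Hochberg adjustment over all genes at 0.05), with the mouse as a block between sides. DESeq2 1.42.0, R 4.3.3 and Python 3.11.15 were also used. SE is the log2 ratio over the square root of F. The fits were tested on simulated data. The labels do not say that replicate numbers pair mice, so p-values reflect only how these 5 mice vary. The lowest chi-square per gene between libraries was 32.36, so all counted separately. Named genes were the 12 most abundant, all called members between treatments with the 3 smallest p-values per direction in proximal cells, up to 6 per direction between sides at 20 CPM or more, those above the proximal level and at least 10 CPM elsewhere, and called partner genes, of which a few are not reported here. Others named were chosen after their values were seen. Coordinates are from GENCODE M21 on GRCm38, and promoters are from RefSeq on GRCm38.p6. Alternatives covered scaling, DESeq2, filters, gates and each mouse left out.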

Additional observations from a re-analysis of the deposited data

Results flagged for a closer look

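Fmo5 and Cyp4f15 showed a signal in cells that were not compared as a group of their own. Cells with at least 2 UMIs of the urothelial genes Upk1b and Upk3a and a low proximal share numbered 45 and 17 in saline mice against 28, 45 and 22 in FMT mice. Fmo5 was at 965.4 and 1221 CPM there in saline mice and at 2032, 1007 and 927.4 in FMT mice, with a mean of 1231.0, against 4.92 to 7.22 in proximal cells. Cyp4f15, a fatty acid hydroxylase, was at 167.3 and 133.2 against 463.3, 207.9 and 150.6 CPM, with a mean of 224.5. FMT mouse 1 was the highest for both genes, and the groups overlapped.

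In the Atp6v1g3 gate, cells with at least 1 UMI of Upk1b or Upk3a, a wider limit, numbered 12 and 6 in saline mice. They numbered 4, 6 and 5 in FMT mice. They held 145 of 157, 125 of 138, 167 of 173, 27 of 36 and 45 of 55 Fmo5 UMIs of that gate. The cells with at least 2 UMIs of Upk1b and Upk3a, in the gate or not, were 0.444 to 0.917% of kept cells and held most Fmo5 UMIs. The share was 75.1% (606 of 807 UMIs, exact 95% interval 72.0 to 78.0) and 71.5% (376 of 526, 67.4 to 75.3) in saline mice 1 and 2. It was 70.3% (785 of 1116, 67.6 to 73.0), 84.4% (794 of 941, 81.9 to 86.6) and 65.7% (197 of 300, 60.0 to 71.0) in FMT mice 1 to 3. The intervals cover counting error only.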

How the results depend on the processing

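No direction was reversed among the single genes recomputed, which were the members called between the sides, those with the smallest p-values between treatments in proximal cells, and Fmo5 in Slc12a3 cells. Other named members were not recomputed singly. Between the sides, DESeq2 did not call Fmo5, Cyp2u1 (adjusted p = 0.104), Cyp2j9 (0.0835) or Ugt2b37, Cyp2u1 was not called at a proximal share of 0.75 of the reference (0.0665), and Cyp2j9 was not called without the mouse as a block (0.251). The count of members called between the sides ranged from 25 to 36 around 33, with 29 by DESeq2 and 29 to 33 with each mouse left out. Between FMT and saline mice, 1 member (Cyp2j9) was called in S2-side cells without a filter on low counts, against 0 with it. In Slc12a3 cells the count was 0 in place of 1 without the highest 5% of UMI counts and at 3 or more Slc12a3 UMIs, where Fmo5 did not pass the filter. It was 0 to 1 with each mouse left out. For the difference between sides it was 0 to 1 with each mouse left out. In the other comparisons the count of members stayed at 0 under all alternatives run. The cause of these changes was not tested.

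Same-numbered saline and FMT mice had deviations correlated at -0.314 and -0.0849 over 7265 genes, and the labels give no pairing. With replicate number as a block, 0 members were called in proximal, S1-side, S2-side, Atp6v1g3 and Ptprc cells and 1 in Slc12a3 cells. Without the mouse as a block, 25 members were called between the sides. Depth limits the Slc12a3 and Atp6v1g3 sums, where 10 members passed the filter.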
